A study of Mus musculus with 12 samples.

Results

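The genes described here are 10 mouse genes of class I antigen presentation, chosen by name and found by NCBI Gene number: the heavy chains H2-K1 and H2-D1, the light chain B2m, the peptide transporter subunits Tap1 and Tap2, the loading chaperone Tapbp, the immunoproteasome subunits Psmb8, Psmb9 and Psmb10, and the transactivator Nlrc5. They are 10 of the 27179 genes listed for whole kidneys of 12 mice, and all 10 passed the filter on low values, which asked for 3 or more libraries with a TPM of 1 or more. TPM is a level per transcript length on a common total, so that genes can be compared within a library. The mice fell into 4 groups of 3. Wild-type mice and mice labelled γGT1-Cre;Fan1-/-, called FAN1KO here, received saline or cisplatin, the latter at 2 mg/kg into the peritoneum once a week for 5 weeks. FAN1 is a nuclease that repairs DNA interstrand crosslinks, which are among the lesions that cisplatin makes. The labels give all 12 mice a mixed strain background and an age of 8 to 12 weeks, and the study describes a backcross to the 129Sv-Elite strain. Cre was driven by Ggt1, which directs the deletion to proximal tubule cells, while the whole kidney was sequenced. Whether the wild-type mice carried Cre is not given in the sources used here.

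Class I molecules carry short peptides from a cell's own proteins to its surface, where CD8 T cells and natural killer cells read them. The proteasome cuts the peptides, the TAP transporter moves them into the endoplasmic reticulum, tapasin (Tapbp) holds the empty heavy chain beside the transporter, and the heavy chain with its peptide leaves only when bound to beta-2 microglobulin (B2m). Interferon and NF-kB signals raise the whole group together, exchange the catalytic subunits of the proteasome for those of the immunoproteasome, and act in part through NLRC5, a factor that assembles on the promoters of class I genes. Nearly every nucleated cell makes class I molecules, leukocytes and endothelium more than resting kidney epithelium.

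Fan1 was read first. After saline its TPM was 1.98 to 3.80 in wild-type and 1.17 to 2.28 in FAN1KO kidneys, and after cisplatin 2.33 to 3.57 and 1.55 to 3.51. The genotypes overlapped under both treatments (exact permutation p 0.2 and 0.6, where 3 against 3 allow no p under 0.1), so that the RNA of the deleted gene did not check the labels. The recovered reads per library ranged from 37196407 to 82935883, and 1 read in a gene of 1 kb was worth 0.020 to 0.0479 TPM. Proximal tubule markers summed to a TPM of 2998 to 9963 in the 12 libraries. In each group 1 library held RNA of Y-linked genes (replicate 3 of wild-type saline and of FAN1KO cisplatin, replicate 1 of the other groups), with a mean log2(TPM + 1) of 3.46 to 3.93 for these genes against at most 0.10 in the other 8. The labels give no sex, while the study describes the use of male and female mice. The 4 libraries with Y-linked RNA stood apart for the class I genes: they were the lowest of their group in 39 of 40 combinations of gene and group, and for 9 of the 10 genes in all 4 groups. Among all 14972 genes tested, they were the lowest in 68.3% of the combinations of gene and group, and 41.5% of the genes were lowest there in all 4 groups. Each main result is therefore also given for the 8 libraries without Y-linked RNA, 2 in each group. The sources used here do not say how littermates were divided, and p-values measure the spread between the mice sampled.

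Under cisplatin all 10 class I genes had a higher mean level in FAN1KO than in wild-type kidneys. Of the 10 genes, 5 passed the test and were higher (H2-K1, H2-D1, Tapbp, Psmb10 and Nlrc5; limma on log2(TPM + 1), Benjamini-Hochberg adjusted p under 0.05), against 19.6% of all genes tested, and none was lower (4.37%). In 7 of the 10 every FAN1KO kidney was above every wild-type kidney, against 35.7% of all genes. The differences ran from 0.54 to 1.49 on the log2 scale with a median of 1.12, beside a median of 0.24 over all genes tested. Genes that missed the threshold were Tap2 (adjusted p 0.0575), Psmb8 (0.0718), Tap1 (0.0782), B2m (0.207) and Psmb9 (0.209). In the 8 libraries without Y-linked RNA all 10 genes passed (28.9% of all genes were called higher there), as they did with Y-linked RNA as a covariate (40.3%), and 8 passed with voom on the recovered reads (20.2%). In whole-kidney RNA, more cells of a type that expresses these genes and more RNA per cell cannot be told apart.

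The 5 calls were not equally firm. H2-K1, H2-D1 and Tapbp passed in each of the 21 alternatives run, Nlrc5 in 17 and Psmb10 in 8. Without wild-type cisplatin replicate 1, without FAN1KO cisplatin replicate 1 or without FAN1KO cisplatin replicate 2 the count fell to 3, and without FAN1KO saline replicate 1 it was 8. Of all 14972 genes 1442, 1169, 1536 and 3144 were called higher in these fits, in that order, beside 2931 in the main fit. With the replicate number as a block the count of class I genes was 5 (15.9% of all genes), although the numbers did not pair the mice. Of all calls in this comparison 81.8% were higher. Dividing by median-ratio size factors moved the median of all genes by -0.25 and that share to 54.6%. With these, 4 of the 10 genes were called (9.28% of all genes), Psmb10 missing the threshold at an adjusted p of 0.0535, and all 10 differences stayed above 0 with a median of 0.84.

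**Figure D1:**
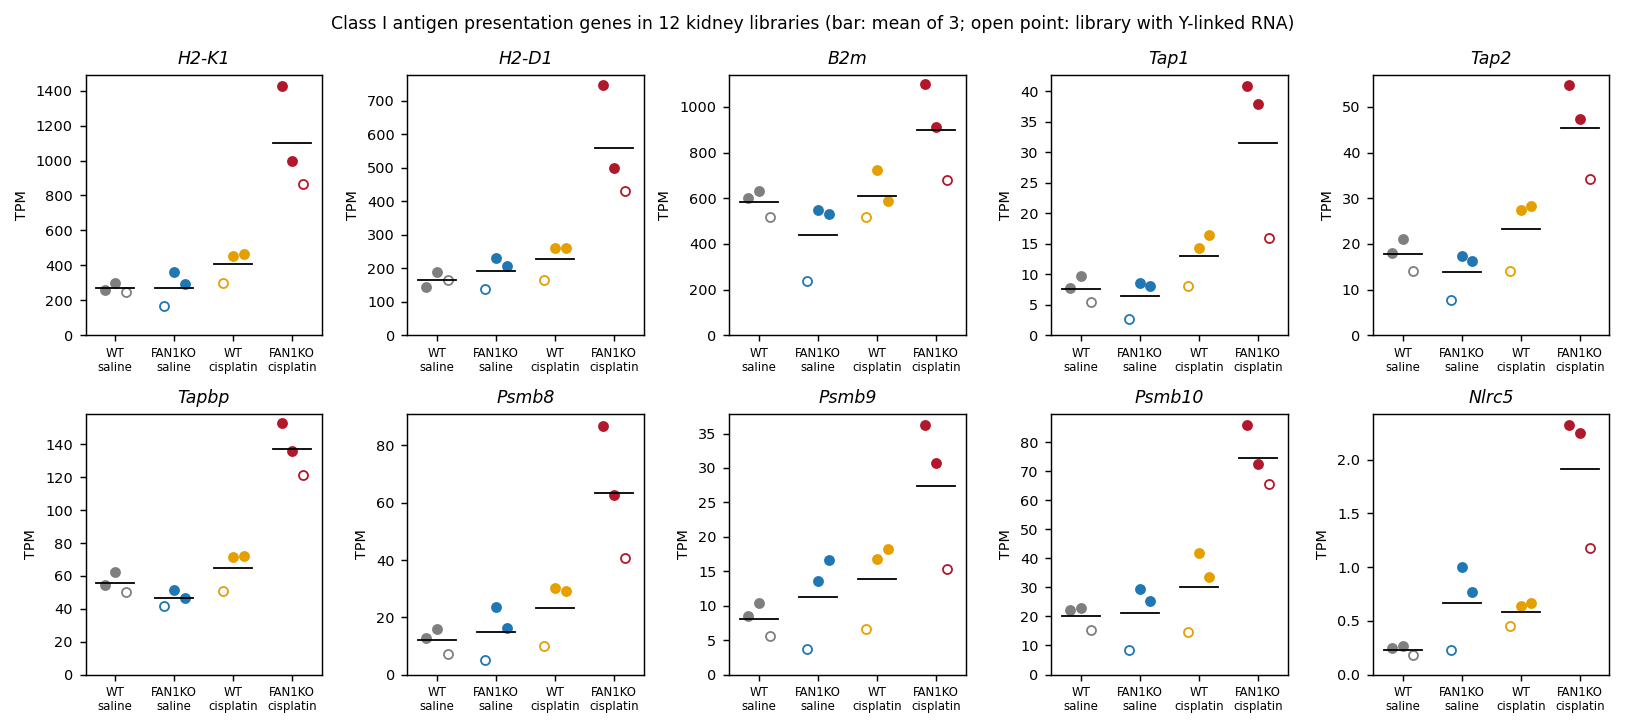
TPM (y axis, linear from 0) of each of the 10 genes in the 12 libraries by group (x axis); each point is 1 mouse, the bar is the mean of 3, and open points are the libraries with Y-linked RNA. FAN1KO cisplatin kidneys held the highest mean of every gene, for H2-K1 1099 against 269 to 407 in the other groups, and the open point was the lowest of its group in all panels but that of H2-D1 in wild-type saline kidneys.

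H2-K1 and H2-D1 encode the polymorphic heavy chains that hold the peptide. Under cisplatin the TPM of H2-K1 was 301, 455 and 465 in wild-type and 1429, 999 and 868 in FAN1KO kidneys. The lowest of the latter was above the highest of the former, the mean was 2.70 times as high, and the difference was 1.43 on the log2 scale (SE 0.29, adjusted p 0.00691). H2-D1 had a TPM of 164, 260.4 and 261 in wild-type and 748, 499.5 and 431 in FAN1KO cisplatin kidneys, again with no overlap (difference 1.28, SE 0.26, adjusted p 0.00705). B2m, the light chain that all class I heavy chains share, had 519.5, 724 and 590.1 against 1099, 911 and 682. These overlapped, as FAN1KO cisplatin replicate 3 lay below wild-type cisplatin replicate 2, and the difference of 0.54 (SE 0.30) did not pass (adjusted p 0.207).

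Without the libraries with Y-linked RNA the mean of B2m was 1.53 times as high in FAN1KO as in wild-type cisplatin kidneys, with no overlap of 2 with 2, and its adjusted p was 0.0130. The ratio of heavy to light chain transcripts does not depend on the scaling between libraries. The TPM of H2-K1 over that of B2m was 0.429 to 0.478 in wild-type and 0.549 to 0.691 in FAN1KO kidneys after saline, and 0.579 to 0.788 and 1.10 to 1.30 after cisplatin. FAN1KO cisplatin kidneys overlapped with no other group. This ratio was chosen after the values had been seen and was not tested. For H2-D1 the ratio was 0.237 to 0.315, 0.392 to 0.581, 0.315 to 0.442 and 0.548 to 0.681 in the same order of groups, and here FAN1KO saline and FAN1KO cisplatin kidneys overlapped. In both ratios every FAN1KO saline kidney was above every wild-type saline kidney, which was not tested. B2m exceeded H2-K1 in 9 of the 12 libraries, all but the 3 FAN1KO cisplatin libraries.

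The stretches before the transcription starts of these 3 genes are shown because these genes encode the heavy and light chains of class I molecules and because the elements through which interferon, NF-kB and the NLRC5-bound complex act on class I promoters can be read in them. They are the 250 bases upstream of the start from RefSeq, build GRCm38.p6, 5′ to 3′ on the strand of the gene: H2-K1 at chr17:34000334-34000583 (minus strand; the more downstream of its 2 starts), H2-D1 at chr17:35262844-35263093 (plus strand) and B2m at chr2:122147437-122147686 (plus strand). Capitals mark matches, on either strand, to GGGATTCCC (an NF-kB element), GAANNGAAA and GAAANNGAA (interferon response elements), TGACG and ATTGG (the core of a CREB site and of a reversed CCAAT box).
H2-K1: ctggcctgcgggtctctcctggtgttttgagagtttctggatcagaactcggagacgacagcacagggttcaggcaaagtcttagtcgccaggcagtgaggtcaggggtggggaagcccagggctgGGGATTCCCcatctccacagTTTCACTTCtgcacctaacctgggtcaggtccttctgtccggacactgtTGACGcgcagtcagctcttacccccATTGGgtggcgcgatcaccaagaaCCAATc
H2-D1: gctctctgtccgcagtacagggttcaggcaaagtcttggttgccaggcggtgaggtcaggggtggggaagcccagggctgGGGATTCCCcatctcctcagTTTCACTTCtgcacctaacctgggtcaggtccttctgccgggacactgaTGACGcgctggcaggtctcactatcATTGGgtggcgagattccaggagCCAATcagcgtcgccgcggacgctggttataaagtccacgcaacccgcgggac
B2m: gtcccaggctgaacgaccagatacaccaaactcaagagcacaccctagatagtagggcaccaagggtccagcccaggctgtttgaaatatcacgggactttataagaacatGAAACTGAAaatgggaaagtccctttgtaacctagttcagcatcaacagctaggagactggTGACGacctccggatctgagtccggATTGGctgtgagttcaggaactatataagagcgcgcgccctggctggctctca

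H2-K1 and H2-D1 shared 177 of 204 aligned bases (86.8%). Both held GGGATTCCC, 124 and 170 bases before the start, which 0.353% of the 32851 RefSeq promoter windows hold (250 bases before to 50 after a start). It was followed by GAANNGAAA on the opposite strand (in 7.52% of windows), 104 and 150 bases before the start, then by TGACG (20.8%) and by ATTGG on either strand (37.4%). B2m held neither of the first pair as spelled here, and other spellings of an NF-kB element were not searched. Instead it held GAAANNGAA, present in 8.56% of windows, 139 bases before its start, again followed by TGACG and ATTGG. No motif overlapped another in these stretches. In all 3 genes an interferon element thus stood before TGACG and ATTGG, while GGGATTCCC was in the windows of both heavy chains and of none of the other 6 class I genes with a window. Such a match describes letters and not binding.

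Tap1 and Tap2 encode the subunits of the peptide transporter and Tapbp encodes tapasin. Under cisplatin Tap1 had a TPM of 8.06, 14.3 and 16.5 in wild-type and 40.8, 37.8 and 16.0 in FAN1KO kidneys. FAN1KO replicates 1 and 2 were above all 3 wild-type kidneys and replicate 3, with Y-linked RNA, lay just under the highest of them, and the difference of 1.17 (SE 0.44) missed the threshold (adjusted p 0.0782). Tap2 had 14.1, 27.5 and 28.3 against 54.8, 47.4 and 34.2, which did not overlap (difference 0.97, SE 0.33, adjusted p 0.0575). Tapbp had 51.1, 71.6 and 72.0 against 153, 136 and 122. It had the smallest spread of the 10 genes and the lowest adjusted p (difference 1.08, SE 0.15, adjusted p 0.00143), and its lowest FAN1KO kidney was at 122 where the highest wild-type kidney was at 72.0.

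In the 8 libraries without Y-linked RNA, Tap1 (adjusted p 0.000920) and Tap2 (0.00230) passed as well, with means 2.56 and 1.83 times as high in FAN1KO cisplatin kidneys. The pair of cisplatin libraries that held Y-linked RNA sets 1 mouse against 1 mouse. In this pair FAN1KO was above wild-type for all 10 genes, from 1.31 times for B2m to 4.44 times for Psmb10. The share of all genes higher in the pair was not counted, so this is no result about the 10 genes. Among the cisplatin libraries without Y-linked RNA the means were 1.53 times (B2m) to 3.51 times (Nlrc5) as high. For all 10 genes the 2 FAN1KO kidneys were above the 2 wild-type kidneys, as they were for 54.3% of all genes tested.

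Of the 10 genes, 7 lie on chromosome 17 within 1348 kb, and Tap1, Tap2, Psmb8 and Psmb9 within 34.3 kb of it. Tap1 and Psmb9 are read outwards from starts 226 bases apart, so they share 1 upstream stretch, printed here as the 250 bases before the start of Tap1 (RefSeq, GRCm38.p6, chr17:34187306-34187555, plus strand, with the same motifs in capitals).
Tap1: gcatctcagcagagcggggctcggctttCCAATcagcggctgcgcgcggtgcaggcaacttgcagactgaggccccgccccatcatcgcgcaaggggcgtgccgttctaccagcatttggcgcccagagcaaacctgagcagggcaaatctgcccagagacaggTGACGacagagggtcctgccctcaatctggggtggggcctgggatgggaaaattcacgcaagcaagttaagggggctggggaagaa

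This stretch held ATTGG and TGACG once each and none of the other 3 motifs as spelled here. Among the 8 class I genes with a window, 6 held ATTGG and 5 held TGACG. Of the standard catalytic subunits, Psmb5 and Psmb6 held TGACG, and Psmb6 held GAANNGAAA too. Tap2, Nlrc5 and Psmb7 had no window.

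The immunoproteasome subunits Psmb8, Psmb9 and Psmb10 replace Psmb5, Psmb6 and Psmb7 of the standard particle and shift its cuts towards peptides that fit class I molecules. Psmb8 had a TPM of 10.06, 30.2 and 29.2 in wild-type and 87.0, 62.6 and 40.7 in FAN1KO cisplatin kidneys, with no overlap (difference 1.49, SE 0.55, adjusted p 0.0718). Psmb9 had 6.64, 16.8 and 18.2 against 36.2, 30.7 and 15.3, and replicate 3 of FAN1KO fell among the wild-type kidneys (difference 0.96, SE 0.53, adjusted p 0.209). Psmb10 had 14.8, 41.9 and 33.7 against 85.9, 72.4 and 65.7, without overlap (difference 1.39, SE 0.45, adjusted p 0.0464). All 3 spread widely within the wild-type group, of which replicate 1 was the lowest kidney.

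Of their standard counterparts 1 of 3 was called, where 19.6% of all genes were called higher. Psmb6 rose from 230.3, 302 and 307 to 390.0, 395 and 373 (difference 0.47, SE 0.13, adjusted p 0.0243). Psmb5 had 102, 67.7 and 65.6 against 178, 137 and 131 (difference 0.93, SE 0.31, adjusted p 0.0543). Psmb7 had 322, 278 and 284 against 318, 306 and 289 (difference 0.05, SE 0.14, adjusted p 0.827), and its groups overlapped. With median-ratio scaling limma called 0 of the 3 (9.28% of all genes), with 0 at an unadjusted p under 0.05, while voom called 1 (20.2%).

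The ratio of the subunits within a library is free of the scaling. Psmb10 had 4.60% to 15.1% of the TPM of Psmb7 in wild-type cisplatin kidneys and 22.7% to 27.0% in FAN1KO cisplatin kidneys. It was 4.15% to 8.61% in wild-type saline and 2.49% to 11.2% in FAN1KO saline kidneys, so FAN1KO cisplatin kidneys overlapped with no other group. Psmb8 had 9.88% to 44.6% of Psmb5 in wild-type and 31.0% to 48.8% in FAN1KO cisplatin kidneys, and Psmb9 had 2.88% to 5.92% and 4.11% to 9.29% of Psmb6, both with overlap. For Psmb10 over Psmb7 the exact permutation p was 0.1, the smallest that 3 against 3 allow, both between genotypes under cisplatin and between treatments in FAN1KO kidneys. None of the 12 ratios and comparisons passed after adjustment (two-sided, smallest adjusted p 0.6), and the design could not have let one pass.

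**Figure D2:**
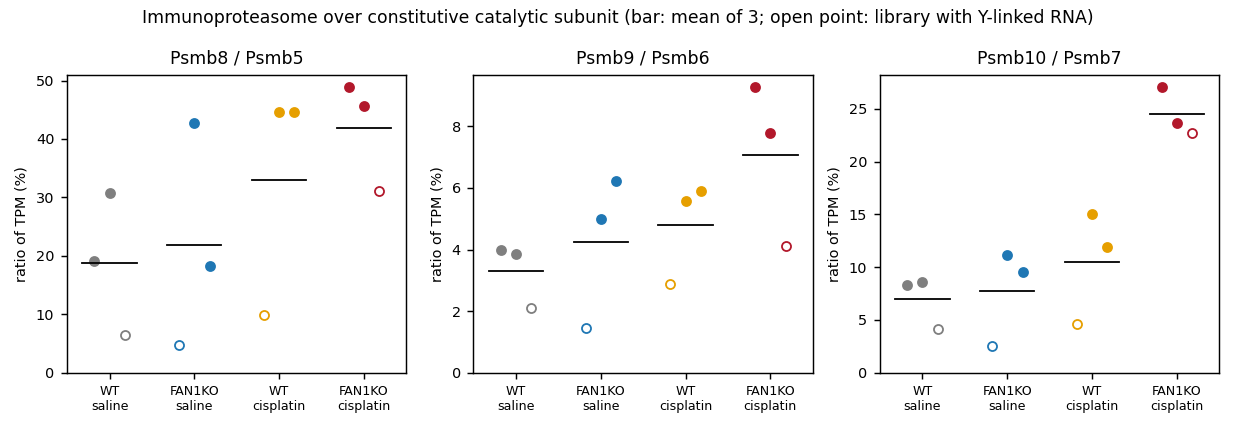
TPM of each immunoproteasome subunit as a percentage of that of the standard subunit it replaces (y axis, from 0) in the 12 libraries by group (x axis); points are mice, bars means of 3, open points the libraries with Y-linked RNA. Only for Psmb10 over Psmb7 were all 3 FAN1KO cisplatin kidneys, at 22.7% to 27.0%, above all the others; the open point was the lowest of its group in every panel.

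Nlrc5 was the scarcest of the 10, with 44 to 351 recovered reads per library. Under cisplatin it had a TPM of 0.456, 0.639 and 0.661 in wild-type and 2.32, 2.25 and 1.18 in FAN1KO kidneys, without overlap (difference 0.86, SE 0.22, adjusted p 0.0206). At such levels the added 1 in log2(TPM + 1) holds the difference down, and the mean TPM was 3.27 times as high. Nlrc5 was also the only gene of the 10 whose 3 wild-type cisplatin kidneys were above all 3 wild-type saline kidneys (0.248, 0.268 and 0.178).

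After saline no class I gene passed the test between genotypes. None of the 10 genes was called in either direction (0.341% of all genes were called higher and 0.427% lower), none had an unadjusted p under 0.05, and none had groups that did not overlap (4.62% of all genes were wholly higher and 7.83% wholly lower). None was called in the 21 alternatives either, among them voom (0.267% of all genes called higher), Y-linked RNA as a covariate (1.16%) and the 8 libraries without Y-linked RNA (0.781%). In these 3 fits 1, 4 and 2 of the 10 had an unadjusted p under 0.05, beside 1423, 2537 and 2350 of all 14972 genes. In these 8 libraries 5 genes had both FAN1KO saline kidneys above both wild-type kidneys (H2-D1, Psmb8, Psmb9, Psmb10 and Nlrc5; 19.8% of all genes did so) and 3 had both below (B2m, Tap2 and Tapbp; 29.7%). The differences ran from -0.50 for B2m to 0.41 for Nlrc5 with a median of -0.07, beside -0.04 for all genes. H2-K1 had 258, 301 and 248 in wild-type and 166, 360.0 and 291 in FAN1KO saline kidneys. FAN1KO saline replicate 1 was the lowest of its group for all 10 genes, and for Nlrc5, at 0.232 against 1.00 and 0.772, it alone lay among the wild-type kidneys.

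Class I genes rose with cisplatin in FAN1KO kidneys. Of the 10, 9 were called higher than after saline (34.9% of all genes were), with none lower (4.90%) and with no overlap for the same 9 (47.4% of all genes) and Psmb9 as the exception (adjusted p 0.0673). The differences ran from 0.81 for Nlrc5 to 2.16 for Psmb8 with a median of 1.62, beside 0.37 for all genes. The mean TPM was 4.89 times as high for Tap1, 4.23 times for Psmb8, 4.04 times for H2-K1 and 2.04 times for B2m. B2m (adjusted p 0.0654) and Psmb8 (0.0521) lost the call without FAN1KO cisplatin replicate 1. In the 8 libraries without Y-linked RNA all 10 were called (44.4%), and with median-ratio scaling 9 were (15.6%). Nlrc5 lost the call without FAN1KO cisplatin replicate 1 (0.0646), without FAN1KO cisplatin replicate 2 (0.0611) and without FAN1KO saline replicate 1 (0.0621). This comparison and that between genotypes share the 3 FAN1KO cisplatin libraries, so they are not independent.

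In wild-type kidneys none of the 10 genes passed between cisplatin and saline (0.0601% of all genes were called higher), and none had an unadjusted p under 0.05. None was called in the 21 alternatives, among them voom (0.0668% of all genes called higher), Y-linked RNA as a covariate (0.381%) and the 8 libraries without Y-linked RNA (0.401%). In these 3 fits 1, 8 and 9 of the 10 had an unadjusted p under 0.05, beside 466, 1782 and 2342 of all 14972 genes. All 10 differences were nevertheless above 0, from 0.06 for B2m to 0.81 for Psmb8, with a median of 0.45 beside 0.08 for all genes. Only Nlrc5 had groups that did not overlap (5.20% of all genes did so upwards). The TPM of Psmb8 was 12.9, 15.8 and 7.25 after saline and 10.06, 30.2 and 29.2 after cisplatin, and the library with Y-linked RNA was the low one of both groups. Among the libraries without Y-linked RNA, 9 of the 10 genes had both cisplatin kidneys above both saline kidneys, all but B2m (39.5% of all genes did so), and the means of the 10 were 1.07 to 2.52 times as high.

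Whether cisplatin acted differently in the genotypes was tested by the interaction. Only Tapbp passed (1.33, SE 0.22, adjusted p 0.0126; 5.22% of all genes were called higher and 1.02% lower), and it passed in all 20 alternatives. H2-K1 missed the threshold (1.48, SE 0.41, adjusted p 0.0566). All 10 interactions were above 0, from 0.45 to 1.48, with a median of 1.34 beside 0.28 for all genes. Of the 10, 7 had an unadjusted p under 0.05, as did 3751 of all 14972 genes. In the 8 libraries without Y-linked RNA 6 of the 10 passed (13.4% of all genes), namely H2-K1, B2m, Tap1, Tap2, Tapbp and Psmb10. Without FAN1KO saline replicate 2 or FAN1KO cisplatin replicate 3 the count was 2 (530 and 981 of all genes, beside 782), with H2-K1 added. With Y-linked RNA as a covariate it was 8 (27.3%) and with median-ratio scaling 1 (2.50%).

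**Figure D3:**
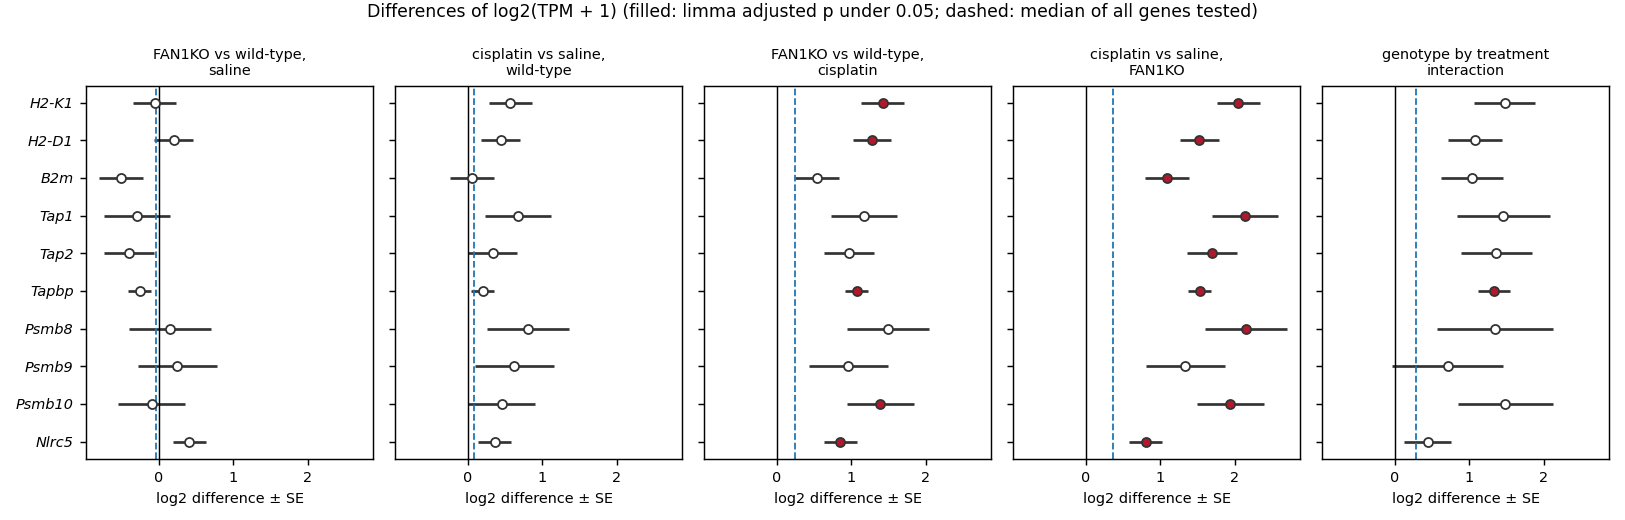
Difference of log2(TPM + 1) with its standard error (x axis) for the 10 genes (y axis) in 4 comparisons of groups and in the interaction; filled points passed at an adjusted p under 0.05 and the dashed line is the median of all genes tested. No point is filled for genotype under saline or for cisplatin in wild-type kidneys, 5 are for genotype under cisplatin, 9 for cisplatin in FAN1KO kidneys and 1, Tapbp, in the interaction.

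Over all 12 libraries, which pool 4 groups of unlike level, the mean TPM was 633 for B2m and 512 for H2-K1, followed by H2-D1 (286), Tapbp (76.1), Psmb10 (36.5), Psmb8 (28.4), Tap2 (25.1), Psmb9 (15.2), Tap1 (14.6) and Nlrc5 (0.850). In FAN1KO cisplatin kidneys H2-K1 led, with a mean of 1099 against 897 for B2m, while B2m exceeded H2-K1 in the other 9 of 12 libraries. Below this pair H2-K1 exceeded H2-D1, H2-D1 exceeded Tapbp and Tapbp exceeded Psmb10 in 12 of 12. Psmb8 and Tap2 (6 of 12) and Psmb9 and Tap1 (8 of 12) changed places between libraries. From the lowest to the highest library the level varied 3.67 times for Tapbp and 4.59 times for B2m, and 16.7 times for Psmb8 and 14.9 times for Tap1.

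The other genes of the class I region were read as a group of 14 tested of 22 listed. Under cisplatin 3 were higher in FAN1KO kidneys and 1 was lower, shares near those of all genes (19.6% higher and 4.37% lower), with a median difference of 0.47 beside 0.24 for all genes. H2-Q2 rose from 0.780, 1.03 and 1.39 to 5.74, 4.26 and 3.33 (difference 1.38, SE 0.30, adjusted p 0.00944). H2-M3, which presents bacterial formyl peptides, rose from 1.22, 4.01 and 2.15 to 8.52, 7.66 and 5.32 (adjusted p 0.0333), and H2-M2 from 0.561, 1.96 and 1.32 to 3.79, 3.64 and 3.01 (adjusted p 0.0118). When each of the 12 libraries was left out in turn, H2-Q2 and H2-M2 kept the call every time and H2-M3 lost it in 4 cases. The count of 3 fell to 2 without replicate 1 or 2 of FAN1KO cisplatin or replicate 1 or 3 of wild-type cisplatin, and it was 5 without FAN1KO saline replicate 1. Among all genes 1169, 1536, 1442, 2382 and 3144 were called higher in these fits, in that order, beside 2931.

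H2-Bl fell from 9.17, 7.24 and 5.14 to 3.94, 0.344 and 0.465 (difference -1.91, SE 0.49, adjusted p 0.0198). It was also lower in every FAN1KO saline kidney, at 0.765, 0.719 and 2.78 against 3.73, 5.85 and 6.96, where it did not pass. H2-Q4 had 24.5, 50.4 and 47.2 against 146, 90.2 and 60.2 under cisplatin, without overlap (adjusted p 0.0833). H2-Q6 and H2-Q7 did not pass and spread widely within groups, with 128, 35.3 and 19.8 for H2-Q6 in FAN1KO cisplatin kidneys. H2-T22, H2-T23, H2-T24, H2-T10, H2-K2, H2-Q1 and H2-Q10 had differences of -0.96 to 0.67 and did not pass. Many of these genes and the classical heavy chains are close copies of each other, and how reads that fit several were counted is not given in the sources used here, so single H2 genes are uncertain. B2m, Tapbp and Nlrc5 overlap other annotated genes (Patl2 for B2m), and whether the counting used strand is not given either.

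Of 8 class I-like heavy chains 2 were higher, near the 19.6% of all genes, with a median of 0.89. Raet1e, a ligand of the NKG2D receptor of natural killer cells, had no read in the wild-type saline kidneys, and under cisplatin it had 0, 0.0711 and 0.0751 in wild-type and 2.55, 1.47 and 3.79 in FAN1KO kidneys (difference 1.73, SE 0.22, adjusted p 0.000901). Hfe, which limits iron uptake, rose from 6.65, 20.1 and 14.2 to 41.2, 34.9 and 22.4 (adjusted p 0.0364). Of the 10 genes of peptide loading and trimming, 4 were higher (19.6% of all genes) with a list median of 0.39: the peptide editor Tapbpl from 9.45, 14.0 and 14.4 to 28.6, 23.9 and 23.1 (difference 0.96, SE 0.19, adjusted p 0.00612), the trimming aminopeptidase Erap1 (0.60, adjusted p 0.0202), the cytosolic peptidase Thop1 (0.55, adjusted p 0.00657) and Npepps, named as the remaining call outside the rule for names (0.52, adjusted p 0.0206). Raet1e and Tapbpl kept the call whichever library was left out, and Hfe lost it in 5 of 12 cases. Under median-ratio scaling 1 of the 10 loading genes was called (9.28% of all genes), and without FAN1KO cisplatin replicate 1 it was 2 (1169 of all 14972 genes).

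The rest of the proteasome differed by smaller amounts. Of 16 other 20S core and assembly genes tested, 9 were higher under cisplatin in FAN1KO kidneys, with a median difference of 0.37, and of 21 genes of the 19S regulatory particle 9 were, with a median of 0.34, beside 19.6% and 0.24 for all genes. None was lower. Psma7 had a TPM of 235, 266 and 278 in wild-type and 466, 447 and 393 in FAN1KO kidneys (difference 0.74, SE 0.10, adjusted p 0.00140), and Psmd10, also known as gankyrin, had 43.2, 41.1 and 46.5 against 84.3, 81.6 and 76.0 (0.87, SE 0.11, adjusted p 0.000837). Psmd8, Psmd4, Psmg4 and Psmb4 rose by 0.50 to 0.68. These counts depended on the scaling. With median-ratio size factors limma called 1 of the 16 and 0 of the 21 (3 and 2 at an unadjusted p under 0.05), beside 9.28% of all genes, with medians of 0.08 and 0.05, while voom called 7 and 9 (20.2%). The counts of 9 and 9 fell to 3 and 4 without FAN1KO cisplatin replicate 1, to 4 and 5 without FAN1KO cisplatin replicate 2 and to 3 and 6 without wild-type cisplatin replicate 1. Among all genes 1169, 1536 and 1442 were called higher in these fits, beside 2931. The count of 20S core and assembly genes was 5 without wild-type cisplatin replicate 2 (2376 of all genes), and Psma7 and Psmd10 kept the call in all 12 cases.

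Psme1 and Psme2 form the interferon-inducible 11S cap that opens the proteasome. Psme1 rose from 89.6, 150.3 and 154 to 287, 263 and 218 (difference 0.99, SE 0.27, adjusted p 0.0251). Psme2 had 11.3, 10.0 and 9.65 against 17.8, 16.0 and 13.0, without overlap (0.54, SE 0.18, adjusted p 0.0518). Of the 4 activator genes Psme1 alone was called, where 19.6% of all genes were called higher. Like Psmb6 it lost the call without wild-type cisplatin replicate 1 or without replicate 1 or 2 of FAN1KO cisplatin.

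**Figure D4:**
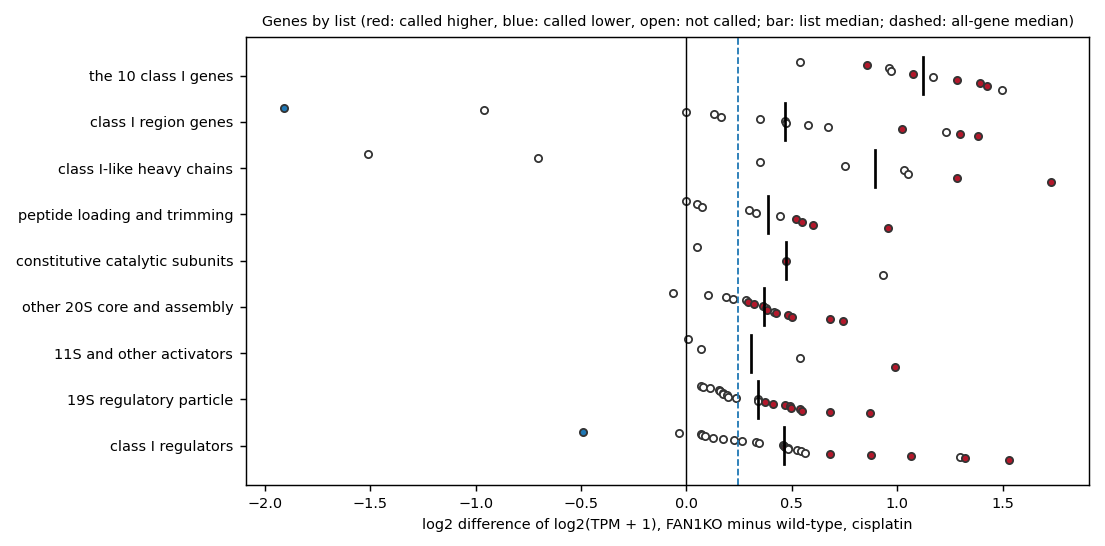
Difference of log2(TPM + 1) between FAN1KO and wild-type cisplatin kidneys (x axis) for every tested gene of the class I and proteasome lists (y axis); red points were called higher, blue lower, open points were not called, bars are list medians and the dashed line is the median of all genes tested, 0.24. The 10 class I genes had a median of 1.12, while the 20S, 19S and 11S lists lay between 0.31 and 0.37.

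Among 25 tested regulators of class I transcription 6 were higher and 1 was lower, again near the 19.6% and 4.37% of all genes, with a median of 0.46. The interferon gamma receptor chains rose, Ifngr1 from 20.1, 31.9 and 26.4 to 88.5, 62.6 and 80.1 (difference 1.53, SE 0.19, adjusted p 0.000891) and Ifngr2 from 20.7, 27.1 and 29.9 to 68.4, 48.8 and 49.2 (1.07, SE 0.17, adjusted p 0.00237). Sting1, the adaptor that senses cytosolic DNA through cGAS, rose from 1.70, 6.69 and 5.94 to 16.7, 13.1 and 8.00 (1.32, SE 0.44, adjusted p 0.0497). Nfya, a subunit of the CCAAT-binding factor, fell from 18.6, 17.9 and 18.3 to 15.3, 12.0 and 11.1 (-0.49, SE 0.13, adjusted p 0.0218). With a library left out the 2 receptor chains kept the call in all 12 cases, while Sting1 lost it in 8 and Nfya in 4. The 6 regulators fell to 2 without FAN1KO cisplatin replicate 1, to 4 without FAN1KO cisplatin replicate 2 or wild-type saline replicate 2 and to 3 without wild-type cisplatin replicate 1 or 3. Among all genes 1169, 1536, 2461, 1442 and 2382 were called higher in these fits, in that order, beside 2931. Irf1, the interferon-induced activator of Tap1 and Psmb9, had 3.26, 13.0 and 12.6 against 32.3, 24.6 and 13.1, which did not overlap and did not pass (1.30, SE 0.56, adjusted p 0.113).

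Rfx5, a part of the complex that NLRC5 joins, had 3.19, 4.98 and 4.55 against 8.07, 6.76 and 5.09 (adjusted p 0.102), and Ciita, the class II counterpart of NLRC5, had 1.14, 3.97 and 3.26 against 6.65, 3.20 and 3.57 (adjusted p 0.285). Interferon gamma (Ifng) had 0 to 6 recovered reads in each of the 12 libraries. The interferons Ifnb1, Ifna1, Ifna2, Ifna4, Ifnl2 and Ifnl3 were listed at 0 in all of them. Of the interferons and related cytokines listed, Il18 alone was tested (difference 0.36). Of 4 tested receptors for class I molecules Cd8a alone was called, where 19.6% of all genes were called higher.

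Markers of other cell types moved with the class I genes in part. Under cisplatin the 19 leukocyte markers summed to a TPM of 68.7, 221 and 182 in wild-type and 443, 224 and 188 in FAN1KO kidneys, which overlapped, against 47.9 to 119 in the 6 saline kidneys. Of the 14 tested, 2 were called higher under cisplatin in FAN1KO kidneys, a share below the 19.6% of all genes. They were the macrophage marker Cd68 (3.31, 11.4 and 10.7 against 45.7, 19.9 and 15.3; adjusted p 0.0499) and Cd8a, the coreceptor that binds class I molecules (0.274, 0.666 and 1.47 against 1.92, 1.89 and 2.81; adjusted p 0.0428). For Cd8a the difference between genotypes was 0.87 under cisplatin and 0.85 after saline, where it did not pass. Its interaction was 0.02 (SE 0.39). The calls of Cd68 and Cd8a were both lost in 9 of the 12 cases in which a library was left out. With median-ratio scaling limma called 0 of the 14 (4 at an unadjusted p under 0.05) where voom called 3. Ptprc, carried by all leukocytes, had 1.59, 3.89 and 4.30 against 6.99, 4.04 and 3.14. Among the FAN1KO cisplatin kidneys the class I sum followed the same order of mice as the leukocyte sum (3736, 2799 and 2276 for the 10 class I genes), and the endothelial, fibroblast and injury sums followed that order too. No leukocyte marker was at 0 in all 12 libraries, but Ms4a1, Ncr1 and Ly6g stayed under a TPM of 1. The part of leukocytes in the class I levels was not tested.

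Endothelial markers had the opposite sign, with a median difference of -1.01. Their summed TPM was 96.5, 452 and 284 in wild-type and 236, 152 and 67.5 in FAN1KO cisplatin kidneys, and limma called 0 of the 8 (0 at an unadjusted p under 0.05, and 0 by voom). Without the libraries with Y-linked RNA 7 of the 8 were called lower (7.76% of all genes). Of 7 fibroblast markers limma called 0, again with 0 at an unadjusted p under 0.05 and 0 by voom. Proximal tubule markers were lower in FAN1KO cisplatin kidneys, 7 of 10 by the test (4.37% of all genes), among them the organic anion transporters Slc22a6 (-2.04, adjusted p 0.0446) and Slc22a8 (-1.76, adjusted p 0.00458), with sums of 2998, 3433 and 5589 against 9097, 6690 and 7634. Of 9 markers of other tubule segments 1 was called higher (19.6% of all genes), and the list median was -0.0094. It was Aqp2, the water channel of the collecting duct (1.39, adjusted p 0.0455), which lost the call in 9 of the 12 cases with a library left out. Tubule injury markers were higher, 7 of 7 by the test (19.6% of all genes), among them Krt20 (4.58), Lcn2 (4.41) and Havcr1 (3.16), with sums of 15062, 11333 and 8822 against 697, 2706 and 2638. Erythroid markers were lower, 4 of 4 by the test (4.37%), among them the alpha-globin genes Hba-a2 (-7.68) and Hba-a1 (-7.52), with sums of 6.56, 13.2 and 73.3 against 2318, 4631 and 6571. With a library left out the counts were 3 to 8 for proximal tubule, 4 to 7 for injury and 4 for erythroid markers. The injury count was lowest without replicate 1 of wild-type or FAN1KO cisplatin (1442 and 1169 of all genes called higher, beside 2931). The proximal tubule count was lowest without replicate 1 or 3 of wild-type cisplatin or replicate 1 or 2 of FAN1KO cisplatin. Among all genes 453, 511, 370 and 402 were called lower in these fits, in that order, beside 654. What each of these marker lists had to do with the class I levels was not tested.

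**Figure D5:**
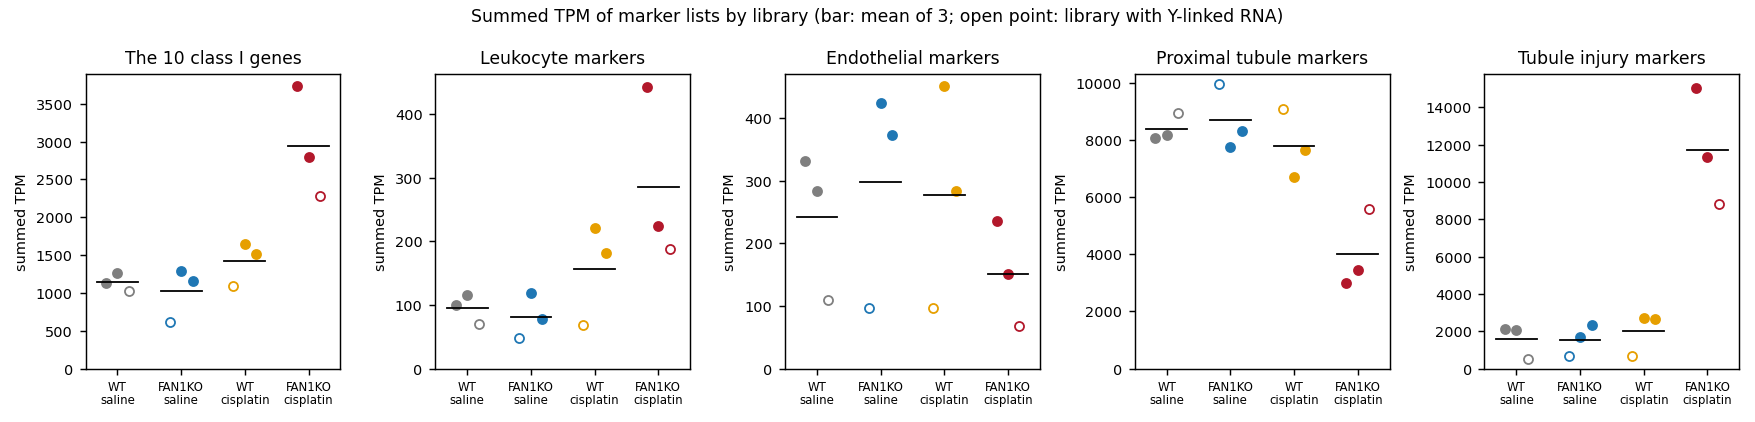
Summed TPM (y axis, from 0) of the 10 class I genes and of 4 marker lists in the 12 libraries by group (x axis); points are mice, bars means of 3, open points the libraries with Y-linked RNA. The class I and injury sums of FAN1KO cisplatin kidneys were above all other libraries, the leukocyte sums overlapped with those of wild-type cisplatin kidneys, and the proximal tubule sums were the lowest.

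The genes outside the 10 whose pattern over the 12 libraries was nearest to their mean pattern, by the root mean square difference of standardized log2(TPM + 1), were Homer3 (0.123 SD), H2-Q4 (0.134), Smarcb1 (0.137), Ranbp3 (0.142) and Rtf2 (0.148). The same distance was 0.154 for Psmb8, the nearest of the 10 themselves, and 0.423 for B2m, the farthest. Homer3 had a TPM of 3.81, 9.71 and 10.06 in wild-type and 27.7, 19.3 and 14.6 in FAN1KO cisplatin kidneys (difference 1.33, adjusted p 0.0423). H2-Q4 is the only one of the 5 in the class I region. All 5 share the groups and the libraries with the 10 genes.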

How the data were processed

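RNA from flash-frozen whole kidneys was sequenced in 12 libraries, 1 per mouse, 3 per group. The authors deposited 1 table of TPM values for 27179 genes by NCBI Gene number, with TPM as the unit they computed from read counts and gene lengths. The submitters' processing notes name mm10 and limma, while the aligner and the gene annotation are not given in the sources used here. Symbols and positions came from RefSeq (GRCm38.p6), which named 25275 identifiers.

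All 232991 values above 0 were whole multiples of what 1 read was worth (tolerance 0.05), which gave back relative read counts. Recovered reads ranged from 37196407 to 82935883 per library. The recovery was tested on simulated data (2912 of 2917 genes returned exactly, the other 5 low by a common factor).

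Log2(TPM + 1) was fitted with limma 3.58.1 (R 4.3.3; group means over all 12 libraries, mean-variance trend, two-sided, Benjamini-Hochberg over the 14972 genes that reached a TPM of 1 in 3 or more libraries). Genes with an adjusted p under 0.05 were called. On counts simulated for the comparison of genotypes under cisplatin (14548 genes tested), 194 of 198 genes changed 2-fold and tested were called, as were 18 unchanged ones. The simulation set the same spread between mice for every gene, had no libraries that stood apart, and changed only well-read genes. Some class I genes spread widely, Psmb8 with an SD of 36.4% to 61.5% of its mean within groups. The simulated share therefore does not carry over to the class I genes. Single values and ratios were compared by exact permutation tests (scipy 1.17.1).

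The 10 genes, the other lists and the tests were chosen with earlier results of these data known. Named were the 10 genes, the standard subunits, Psme1, Psme2, Irf1, Rfx5, Ciita and Ifng, all tested class I region genes, in each other list up to 3 largest rises and 2 largest falls among genes called between genotypes under cisplatin, and the 5 nearest in pattern. Some genes that this rule names are not reported here. Alternatives were a pseudocount of 0.1, no filter, the compared libraries alone, median-ratio scaling, no trend, Y-linked RNA as a covariate, a replicate block, voom on recovered reads and leaving out each library. The fit of the 8 libraries without Y-linked RNA was added after the data had been seen. Same-numbered mice did not pair: in each comparison 1 of 3 pairs correlated above 0.1, and the mean correlations were -0.24 to -0.14.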

Additional observations from a re-analysis of the deposited data

Results flagged for a closer look

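The difference that cisplatin made was itself different between the genotypes (interaction on log2(TPM + 1), limma, Benjamini-Hochberg adjusted p) for some of the genes named here, beside 5.22% of all genes tested with a positive and 1.02% with a negative interaction. Apart from Tapbp and Psme2, they were named for having the largest called differences between genotypes under cisplatin, a difference that is itself a term of the interaction, so their number is no independent result. Among the 10 class I genes it was Tapbp (1.33, adjusted p 0.0126). Among genes of antigen processing and its proteasome these were Psme2 (1.01, 0.0450), Thop1 (0.75, 0.0238), Psma7 (0.77, 0.0196), Psmd10 (0.72, 0.0284) and Psmd8 (0.75, 0.0150). The NKG2D ligand Raet1e (1.57, 0.0215) and the interferon gamma receptor chains Ifngr1 (1.46, 0.0184) and Ifngr2 (1.28, 0.0169) were also higher in this sense. The injury markers Krt20 (4.45, 0.0143), Lcn2 (5.80, 0.0111) and Havcr1 (5.53, 0.0300) had the largest positive interactions among the genes given here. The alpha-globin genes Hba-a2 (-6.23, 0.0196) and Hba-a1 (-5.89, 0.0206) had negative ones. All rest on the same 3 FAN1KO cisplatin libraries.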

How the results depend on the processing

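Between genotypes under cisplatin, the count of class I genes called higher (5) was 10 with Y-linked RNA as a covariate, 10 in the 8 libraries without it and 8 with voom. It was 3 to 8 when a library was left out, where 1169 to 3144 of all genes were called higher. With the replicate block it was 5, and 2376 genes in all were higher instead of 2931. For the interaction (1) it was 8 with the covariate, 6 in the 8 libraries and 1 to 2 when a library was left out (217 to 981 of all genes). The block changed no call among the 10 genes. Every one of these differences and interactions kept its sign.

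Directions turned only where the difference had not passed. After saline H2-K1 was at 0.00093 with median-ratio scaling, at 0.21 in the 8 libraries and at -0.29 to 0.27 with a library left out, and Psmb10 was at 0.25 in the 8 libraries and at -0.41 to 0.44 with a library left out. With a library left out Tap1 lay at -0.52 to 0.15, Psmb8 at -0.27 to 0.72 and Psmb9 at -0.11 to 0.85. B2m between treatments in wild-type kidneys was at -0.041 with median-ratio scaling and at -0.072 to 0.17 with a library left out. The cause was not tested. Depth limits Nlrc5, Raet1e and Ifng, which rest on 44 to 351, 0 to 107 and 0 to 6 reads per library, and each group held only 3 mice, of which 1 stood apart.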
